A study of Mus musculus and Homo sapiens with 54 samples.

Results

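The distal H2A.Z peaks of HCT116 cells comprised 34326 of the 64048 H2A.Z peaks deposited for this cell line. They were the peaks on chromosomes 1 to 22 and X whose nearest edge lay over 10 kb from every transcription start site (TSS), taken as the 5′ end of each of 62062 genes annotated in GENCODE 44 on hg38. Distal peaks made up 53.6% of the 64034 peaks on these chromosomes, peaks over 1 kb and up to 10 kb from a TSS 26.8%, and peaks within 1 kb of a TSS 19.6%. The series profiled histone H2A and H2B marks in 54 samples of mouse embryonic stem cells and human cells. HCT116 is an established line from a human colorectal carcinoma, and all of its libraries carried the wildtype genotype. The H2A.Z list was made from total ChIP-seq of untreated cells (2 libraries, with 2 untreated input libraries). An H2BK120ub1 list of the same line held 93123 intervals. The series has 2 untreated H2BK120ub1 libraries and 2 from cells given 10 µM triptolide, an inhibitor of transcription initiation, for 20 min, and the sources used here do not say which of them entered the list. Both lists give the chromosome, start and end of each region, merged over libraries, without a score or a value per library. No replicate error and no test between groups could therefore be had, the read depth of the libraries is not in the lists, and all values below describe 1 list. Intervals of 95% are given for some shares and cover counting error only, since neighbouring peaks are not independent.

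H2A.Z is a variant of histone H2A that is placed in nucleosomes by dedicated remodelling complexes. It flanks the start sites of many active genes and also marks enhancers and other accessible sites away from promoters. H2BK120ub1 is ubiquitin added to histone H2B during transcription elongation, and it covers the bodies of transcribed genes. A gene over 3000 bp that shared at least 1 bp with an H2BK120ub1 interval was called decorated. The study used the same length and overlap but also left out genes in blacklisted regions and took another gene list, which was not done here. Decoration is used here only as the presence of the mark, and no level of expression was held.

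Central sequences of 2 distal peaks are printed first, because the letters of transcription factor sites in these windows are counted further on. From the cluster of 28 peaks described further on, the peak with most AP-1 (TGACTCA or TGAGTCA) and TCF/LEF (ATCAAAG or CTTTGAT) letters is given, followed by 1 of the 2 distal peaks with 5 AP-1 matches, the most in any central window of 300 bases. AP-1 is the dimer of FOS and JUN proteins that acts downstream of MAPK signalling, and TCF/LEF proteins are the DNA-binding partners of β-catenin in WNT signalling. Capitals mark these letters, and the hg38 plus strand is shown 5′ to 3′.
PCDH7 cluster of 28 peaks, chr4:31212673-31212972: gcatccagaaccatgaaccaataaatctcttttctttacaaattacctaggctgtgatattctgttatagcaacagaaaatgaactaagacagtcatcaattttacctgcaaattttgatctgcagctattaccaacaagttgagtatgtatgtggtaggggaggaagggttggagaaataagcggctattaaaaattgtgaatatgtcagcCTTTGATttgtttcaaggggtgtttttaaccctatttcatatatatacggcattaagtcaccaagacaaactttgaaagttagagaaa
ZNF469, chr16:88333351-88333650: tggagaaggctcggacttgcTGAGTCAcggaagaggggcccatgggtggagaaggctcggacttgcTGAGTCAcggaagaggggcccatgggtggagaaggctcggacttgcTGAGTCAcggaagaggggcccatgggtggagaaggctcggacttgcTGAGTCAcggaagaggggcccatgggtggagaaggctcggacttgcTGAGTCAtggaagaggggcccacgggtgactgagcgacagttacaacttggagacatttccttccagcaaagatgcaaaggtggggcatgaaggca
Both peaks were intergenic. The peak of the PCDH7 cluster held 1 TCF/LEF match and no AP-1 match. The 5 AP-1 matches near ZNF469 followed each other at a constant spacing of 46 bases, so the letters recur in a tandem repeat.

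The marks at marker genes were in part those of an epithelial line. All 5 epithelial genes (EPCAM, CDH1, KRT8, KRT18 and KRT19) were decorated, as were 47.2% of protein-coding genes in all, and none of the 6 blood, neuronal and muscle markers (PTPRC, CD3E, SYP, SNAP25, DES and CKM) was. Promoter H2A.Z, a peak within 1 kb of the gene TSS, was found at 50.4% of protein-coding genes. It did not separate the markers, as it was found at CDH1 alone of the epithelial genes and at CD3E, SNAP25 and DES of the others.

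Distal peaks were narrower than peaks at start sites. Their median width was 983 bp (95% interval 974 to 991 bp), with quartiles of 648 and 1514 bp, against 1053 bp for peaks over 1 kb and up to 10 kb from a TSS and 1463 bp for peaks within 1 kb. Only 13.5% of distal peaks were wider than 2 kb, whereas 27.4% of the peaks within 1 kb were. At the other end, 11.7% of distal peaks and 3.51% of peaks within 1 kb were under 500 bp. Distal peaks covered 41.8 Mb in all, peaks within 1 kb 21.1 Mb and the intermediate class 22.1 Mb. At the 10-kb limit, the 1488 peaks between 9 and 10 kb had a median width of 1009.5 bp and the 1419 peaks between 10 and 11 kb one of 1110 bp, so those just inside the distal set were the wider.

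**Figure D1:**
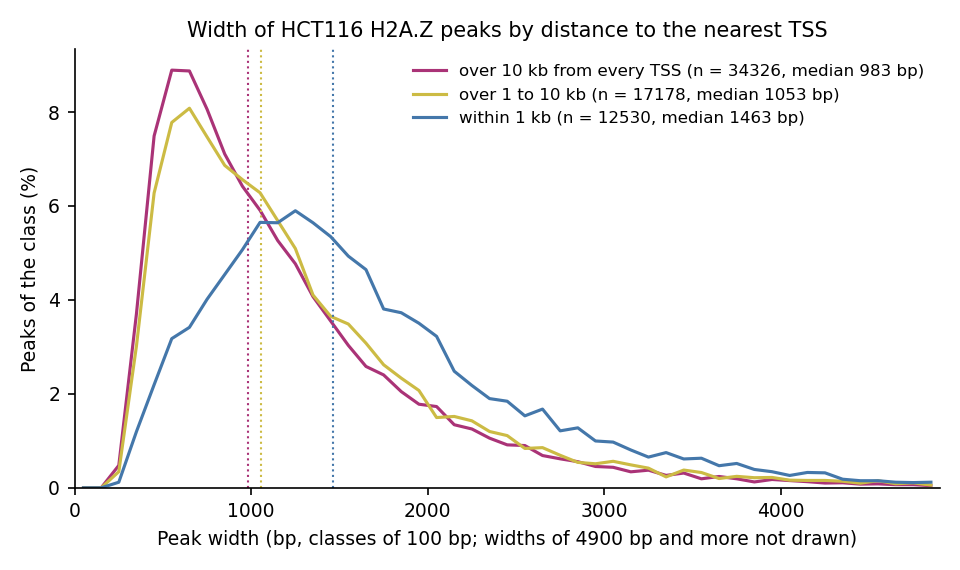
Share of peaks (y axis, percent) by width in classes of 100 bp (x axis) for the 3 classes of distance to the nearest TSS, with dotted lines at the medians. The distal and intermediate curves lie almost on each other, with medians of 983 and 1053 bp, and the curve of peaks within 1 kb lies to their right, with a median of 1463 bp.

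Among the distal peaks themselves, width was lower in each farther class. The 11025 peaks between 10 and 20 kb from a TSS had a median of 1037 bp, the 13938 peaks between 20 and 50 kb one of 994 bp, the 6236 peaks between 50 and 100 kb one of 948 bp, the 2529 peaks between 100 and 200 kb one of 860 bp and the 596 peaks between 200 and 500 kb one of 809 bp. Only 2 peaks lay over 500 kb away. The median distance to the nearest TSS was 28911 bp from the edge of the peak, and the quartiles were 17294 and 53487 bp.

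The 5 widest distal peaks were all far wider than the median. The widest, 12242 bp at chr4:11479678-11491919, was intergenic and had its nearest protein-coding TSS 56.2 kb away at HS3ST1, which encodes a heparan sulfate sulfotransferase. On chromosome 8, a peak of 12084 bp lay 79.0 kb from TRIB1, a pseudokinase gene, another of 10651 bp lay 108 kb from LRATD2, and another of 10622 bp lay 20.4 kb from CDH17, which encodes an intestinal cadherin. The fifth, of 8833 bp, lay at chr2:160219982-160228814, 24.1 kb from ITGB6, which encodes an epithelial integrin subunit. These 5 peaks had GC contents from 40.1% to 49.9% and ratios of observed to expected CpG from 0.163 to 0.281, so none had the sequence of a CpG island.

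Distal peaks were poorer in GC and CpG than peaks at promoters. The median GC content of the central 300 bases was 45.7% in distal peaks, 47.0% between 1 and 10 kb and 60.0% within 1 kb, against a mean of 39.7% in the distal genome outside H2A.Z peaks. The median ratio of observed to expected CpG was 0.186 in distal peaks and 0.640 within 1 kb. Only 531 distal peaks (1.55%) had over 50% GC and a CpG ratio over 0.6, against 53.0% of peaks within 1 kb. Of these 531 island-like peaks, 315 lay in decorated genes, 120 in undecorated genes and 96 between genes. An annotated transcript of a gene started inside 338 of the 531, since the distance rule used gene 5′ ends and left internal starts in place. Over all distal peaks, 1228 (3.58%) contained an annotated transcript start. Those peaks had a median width of 1457.5 bp, close to that of promoter peaks, and the other distal peaks one of 967 bp.

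Distal peaks were placed between genes more often than the distal genome is. By midpoint, 18198 peaks (53.0%) were intergenic, whereas 41.2% of distal bases were. Gene bodies held 47.0% of the peaks (95% interval 46.5% to 47.5%) and 58.8% of distal bases. On 22 of 23 chromosomes the share of peaks in gene bodies was below that of bases, and chromosome 21 was the exception, with 60.4% of peaks and 51.7% of bases. The deficit lay in introns, which held 43.5% of peaks and 55.6% of distal bases, a ratio of 0.782. Exons outside the 10-kb zones held 3.51% of peaks and 3.16% of bases. Protein-coding genes held 10104 peaks at 11.1 per Mb of distal body, and bodies of long noncoding RNA genes alone held 5799 at 19.7 per Mb.

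The genic deficit was greatest in decorated genes, and undecorated genes also lay below intergenic sequence. The ratio of intergenic to undecorated density had a median of 1.23 over chromosomes and was below 1 on 2 of 23. Undecorated host genes held 12981 distal peaks over 746 Mb of distal body, or 17.4 per Mb, decorated host genes 3147 over 475 Mb, or 6.63 per Mb, and intergenic sequence 21.3 per Mb. The density in decorated genes was thus 0.381 of that in undecorated genes (95% interval 0.366 to 0.396). The median width of the peaks was 1026 bp in decorated genes, 954 bp in undecorated genes and 997 bp between genes. Relative to bases, decorated genes held 0.401 of their share of distal peaks, undecorated genes 1.05 and intergenic sequence 1.29. The ratio of decorated to undecorated density was below 1 on 22 of 23 chromosomes, with a median of 0.352 over chromosomes and a lowest value of 0.1498 on chromosome 22.

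The exception was chromosome 21, where the ratio was 2.66. There 58 of the 87 peaks in decorated genes had their midpoint in the body of RUNX1, which encodes a transcription factor of blood development. Without RUNX1 the ratio on chromosome 21 was 1.116. RUNX1 was decorated by the definition, although H2BK120ub1 covered only 0.563% of its 1217 kb.

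Density was lower in each class of more extensive decoration. Genes with no H2BK120ub1 held 17.4 distal peaks per Mb of distal body, genes covered to at most 10% held 9.48, genes covered from 10% to 25% held 6.65, genes covered from 25% to 50% held 4.48, and genes covered to over 50% held 1.01. The last class had 83 peaks over 82.2 Mb. These densities count the bases inside H2BK120ub1 intervals, which held very few midpoints, as given further on. Density on the uncovered bases of each class was not computed, and gene length was not matched between the classes. Of the 3147 peaks in decorated genes, 2115 lay in genes covered to at most 10%. Those genes also held 223 of the 475 Mb of distal body in decorated genes.

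Decorated genes had the lowest density at each matched distance from a TSS up to 500 kb. Between 10 and 20 kb there were 31.7 peaks per Mb of intergenic sequence, 22.1 in undecorated and 7.30 in decorated genes. Between 50 and 100 kb the values were 17.3, 14.8 and 5.51 per Mb. Intergenic density was above that of undecorated genes in each class up to 200 kb and below it between 200 and 500 kb, at 6.83 against 8.07 per Mb. Density between genes and in undecorated genes was lower in each farther class, whereas in decorated genes it stayed between 4.61 and 7.30 per Mb over the 5 classes up to 500 kb. The ratio of decorated to undecorated density was accordingly 0.331 between 10 and 20 kb, 0.372 between 50 and 100 kb and 0.571 between 200 and 500 kb, the last from 21 peaks.

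**Figure D2:**
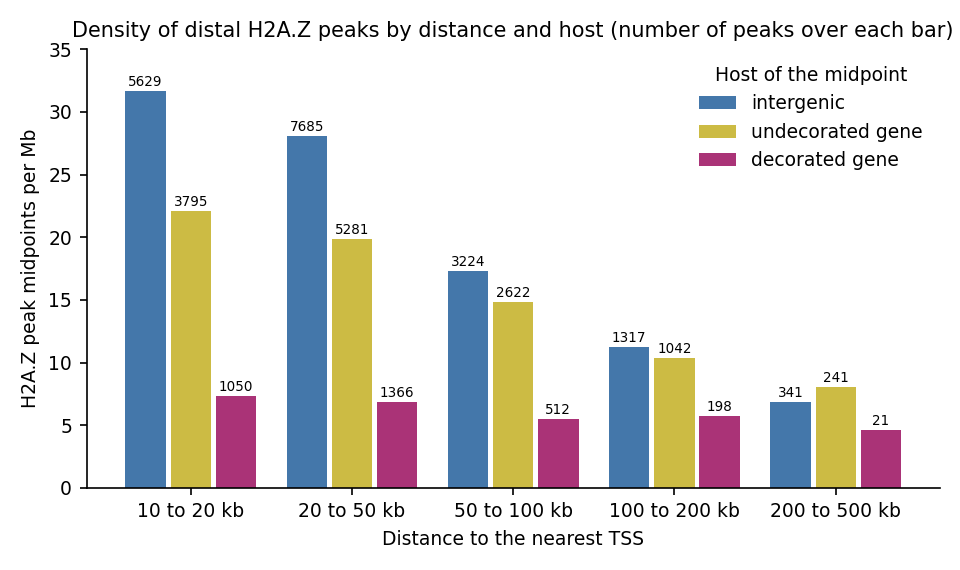
Midpoints of distal H2A.Z peaks per Mb of distal sequence (y axis) by distance to the nearest TSS (x axis) in intergenic sequence, undecorated genes and decorated genes, with the number of peaks over each bar. Intergenic density falls from 31.7 to 6.83 per Mb, while the bars of decorated genes stay between 4.61 and 7.30 per Mb.

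Gene length changed the comparison. Among host genes of 3 to 50 kb, decorated bodies held 3.72 peaks per Mb and undecorated bodies 30.0, a ratio of 0.124. The ratio was 0.214 for genes of 50 to 100 kb, 0.291 for genes of 100 to 200 kb and 0.408 for genes of 200 to 500 kb. In genes over 500 kb the densities were 8.77 and 8.50 per Mb, a ratio of 1.03, so the deficit was not seen in the longest genes. Within decorated genes the density was higher in each class of longer genes, whereas in undecorated genes it was lower.

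Inside decorated genes, distal H2A.Z and H2BK120ub1 kept apart. H2BK120ub1 intervals covered 21.6% of the distal bases of these genes and held 6 of the 3147 midpoints (0.191%), a ratio to base coverage of 0.00884 (95% interval 0.00405 to 0.0193). A further 4.29% of midpoints lay within 1 kb of an interval, where 16.7% of the bases were, and 7.75% lay between 1 and 5 kb, where 14.8% of the bases were. By contrast, 71.7% of the midpoints and 32.3% of the bases were over 20 kb from any interval. Outside genes, where intervals covered 0.176% of the distal bases, 1 of the 18198 intergenic midpoints was inside an interval, and 6.91% lay between 5 and 20 kb from one, where 3.55% of the bases were. Counting any shared base, 100 of the 34326 distal peaks touched an interval and 3 lay wholly inside 1. Peaks nearer to start sites were also rarely inside intervals of decorated genes, at 8 of 1915 between 1 and 10 kb (ratio 0.0140) and 61 of 4083 within 1 kb (ratio 0.0625).

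The place of the peaks along decorated genes was unequal as well. Each of the 7111 decorated protein-coding genes with distal body was divided at the first and the last H2BK120ub1 interval in the direction of transcription, which gave 2513 pairs of a gene and a peak. The part of the gene before its first interval held 63.5% of the pairs on 13.2% of the distal bases, a ratio of 4.82 and a density of 26.3 peaks per Mb. Over all distances, intergenic sequence held 21.3 distal peaks per Mb and undecorated genes 17.4. Distance to a TSS was not matched between these values. Between the first and the last interval but outside them the density was 1.78 per Mb, inside the intervals 0.0470, and beyond the last interval 5.47. The peaks before the first interval lay at a median of 40.4 kb from it, and 67.9% of them were over 20 kb away. Of these 1597 pairs, 898 (56.2%) were also over 10 kb from every annotated transcript start. So were 1442 of all 2513 pairs in decorated protein-coding genes, and 28973 of all 34326 distal peaks. Pairs in decorated genes were thus more often near an annotated transcript start than distal peaks in general.

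**Figure D3:**
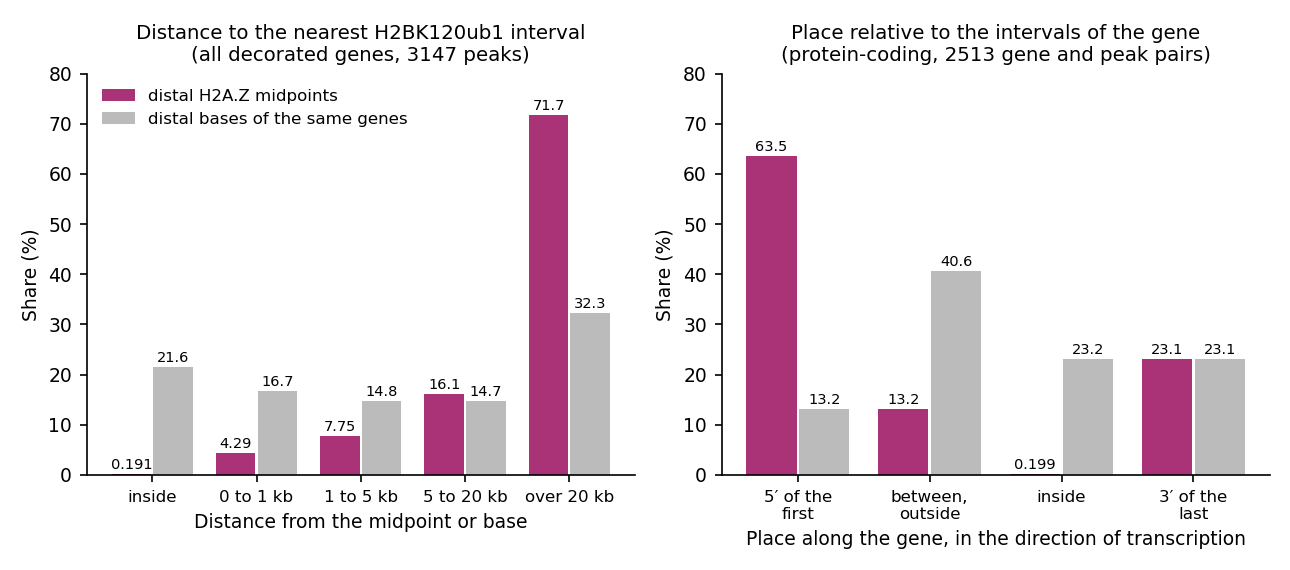
Share of distal H2A.Z midpoints and of distal bases (y axes, percent) by distance to the nearest H2BK120ub1 interval in decorated genes (left) and by place relative to the first and last interval of decorated protein-coding genes (right). Midpoints are nearly missing inside the intervals, at 0.191% against 21.6% of bases, and are most frequent before the first interval, at 63.5% against 13.2% of bases.

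The genes with most peaks before their first interval were RUNX1, with 57 of its 58 peaks, PDE4B, with all 33, IQCJ-SCHIP1, with all 32, RBPJ, with all 23, and PALM2AKAP2, with all 22. PDE4B encodes a cAMP phosphodiesterase and RBPJ the DNA-binding effector of Notch signalling. In RUNX1 these peaks lay in the 1128 kb between the annotated 5′ end and the first interval, at a median of 402 kb from that interval. The median was 433 kb in IQCJ-SCHIP1, a read-through gene, 156 kb in PALM2AKAP2, 99.8 kb in RBPJ and 86.1 kb in PDE4B. The 10 leading genes together gave 254 of the 1597 pairs (15.9%), and 509 genes contributed at least 1.

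Only 7 distal midpoints were inside an H2BK120ub1 interval, and they are named because there are so few, after their values were seen. In decorated genes they lay in MKX, PCGF5, SYT1, RND3, PPP2R2C and the noncoding gene LINC00511. The intergenic one lay 30.1 kb from a gene TSS, with TCF7L2, a TCF/LEF gene, as the nearest protein-coding gene. The interval around the LINC00511 peak was the widest of the 7, with 44031 bp, and those at the midpoints of the PCGF5, TCF7L2, SYT1 and PPP2R2C peaks were 376 to 652 bp wide. The TCF7L2, SYT1 and PPP2R2C peaks, of 554, 722 and 1116 bp, were wider than their intervals.

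The hosts with most distal peaks were long genes. After RUNX1 with 58 peaks came DLGAP1 with 49, AFF3 with 48, LAMA2 with 38, GRM7 with 36, FSTL5 with 34, PDE4B with 33, IQCJ-SCHIP1 with 32 and RBFOX3 with 31. DLGAP1 encodes a scaffold of the postsynaptic density, GRM7 a glutamate receptor, RBFOX3 a splicing regulator of neurons, and LAMA2 a laminin chain. Of these 9 genes, 6 carried no H2BK120ub1, and the other 3 (RUNX1, PDE4B and IQCJ-SCHIP1) were covered to at most 2.36%. Of them, AFF3 and RBFOX3 had an H2A.Z peak within 1 kb of the gene TSS. All 9 were between 522 and 1217 kb long, so their density, from 40.2 per Mb in IQCJ-SCHIP1 to 77.8 in AFF3, says more than their count.

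By density, shorter undecorated genes came first. Among protein-coding hosts with at least 10 distal peaks, HORMAD2, which encodes a protein of the meiotic chromosome axis, held 11 peaks in 46.6 kb of distal body, or 236 per Mb. POU5F1B, a retrogene of POU5F1 that lies beside MYC, held 16 peaks, also at 236 per Mb, and POU2F3, the tuft cell transcription factor, 11 at 226 per Mb. RHOH, PRTFDC1, CABCOCO1, LIPC, DENND2A, MARCHF10 and SLC16A12 followed, from 218 down to 166 per Mb. None of these 10 genes had any H2BK120ub1 in its body (47.2% of all protein-coding genes were decorated). Of the 10, 7 had H2A.Z at the promoter (50.4% of all protein-coding genes). In all, 2958 of the 12837 protein-coding genes with distal body held at least 1 distal peak (23%), and 228 held at least 10. Of these 228, 41 were decorated, against 7111 of the 12837, and 99 had promoter H2A.Z, against 10061 of all 19970 protein-coding genes. The latter is a wider set that includes genes without distal body, and promoter H2A.Z was not counted among the 12837 alone.

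Distal peaks were spaced unevenly along the chromosomes. The median gap from a distal peak to the next was 12.8 kb and the mean gap 83.3 kb, with a lower quartile of 3.57 kb and an upper quartile of 50.8 kb. A gap that crosses a TSS must exceed the 10 kb left out on both sides of it. Part of this spread is therefore set by the distance rule, and how much was not tested. When runs of at least 3 peaks with gaps of at most 10 kb were called clusters, 15118 peaks (44.04%, 95% interval 43.5% to 44.6%) fell into 3401 clusters with a median span of 15.6 kb. Another 11786 peaks (34.3%) stood alone and 3711 runs were pairs. Clusters of 10 or more numbered 131 and held 1713 peaks. Of the 2552 windows of 1 Mb with at least 500 kb of distal sequence, 554 (21.7%) had no distal peak and the median window had 10. The 255 fullest windows held 32.9% of the distal peaks that lay in the 2552 windows.

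Peaks in large clusters were wider and less often in genes than peaks that stood alone. The median width was 892 bp for single peaks, 1078 bp in clusters of at least 3 and 1179 bp in clusters of 10 or more. Gene bodies held 51.6% of single peaks, 42.8% of peaks in clusters of at least 3 and 33.5% of those in clusters of 10 or more. The share in decorated genes was 10.9%, 7.90% and 10.7% in the same order and thus showed no steady trend. Island-like sequence was found in 2.91% of single peaks and 0.409% of peaks in clusters of 10 or more. AP-1 letters were about as frequent in all 3 classes, at 9.14%, 8.90% and 8.06%.

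The 10 largest clusters held 21 to 36 peaks each. The largest had 36 peaks over 150 kb on chromosome 8, with 60.4% of the span covered by peaks, 123 kb from the TSS of TRIB1 when measured from its middle. The second, chr4:31212415-31336663, had 28 peaks with 27.2% covered, all of them intergenic. Its middle lay 554 kb from the TSS of PCDH7, which encodes a protocadherin. The body of PCDH7 ends at chr4:31146805, so the cluster lay beyond its 3′ end and nearer to the gene than to its TSS. Distances of the clusters that follow also run from the middle to the TSS. A cluster on chromosome 12 had 24 peaks, lay 104 kb from HMGA2, a gene of an architectural chromatin protein, and 4 of its peaks were in a decorated gene. Clusters of 23 peaks lay on chromosome 6 beside ADGRF1, at chr3:23658794-23763606 beside UBE2E1, on chromosome 8 beside KLF10, and at chr5:93283935-93366666, 258 kb from NR2F1. Clusters of 22 lay at chr17:71377220-71485113, 690 kb from SOX9, and at chr7:116569694-116648515 in the noncoding gene COMETT, 63.1 kb from MET, the receptor of hepatocyte growth factor. The tenth, chr1:66223219-66327100 with 21 peaks, lay wholly in PDE4B, before its first H2BK120ub1 interval.

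In 6 of these 10 clusters all peaks, or all but 1, were intergenic, whereas the COMETT and PDE4B clusters had no intergenic peak. In windows of 1 Mb, the highest count was 94, in the window of chromosome 8 with MYC and POU5F1B, followed by 88 beside PCDH7 on chromosome 4 and 87 with HAS2, a hyaluronan synthase gene, on chromosome 8. The fourth, with 83 peaks, contained RBMS3, TGFBR2 and GADL1, and the fifth, with 81 on chromosome 5, contained no protein-coding gene. Density per chromosome ranged from 2.22 per Mb of distal sequence on X to 23.1 on chromosome 17, with a median of 16.2. The copy number of each region in this cell line was not used here, and its part in these counts was not tested.

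A few protein-coding genes were the nearest by TSS to very many distal peaks. PCDH7 was nearest to 217 peaks, NR2F1 and SOX9 to 90 each, HAS2 to 81, EFNA5 to 75, TGFBR2 to 74, MYC to 73, ACTBL2 and KLF5 to 61 each and CITED2 to 59. In all, 6803 protein-coding genes (34.1%) were nearest to at least 1. The peaks were spread over long distances, with a median of 662 kb at PCDH7 and 664 kb at NR2F1, an orphan nuclear receptor gene, of whose 90 peaks none lay within 100 kb. At SOX9, a transcription factor gene of intestinal crypts, the median was 446 kb and 65 of 90 peaks lay upstream. At MYC the peaks lay nearer, with a median of 133 kb, 28 within 100 kb, 44 upstream and 29 downstream.

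The sides were unequal at several of these genes. Both the counts and the sides depend on how far the next protein-coding TSS lies in each direction. They were not set against the amount of sequence assigned to each gene. All 61 peaks assigned to KLF5, a transcription factor of proliferating intestinal epithelium, lay downstream of its TSS, and all 90 of NR2F1 lay upstream. At TGFBR2 67 of 74 and at CITED2, a transcriptional co-regulator gene, 57 of 59 lay upstream. The whole bodies of NR2F1, SOX9, MYC, ACTBL2 and CITED2 lay within 10 kb of a TSS and could hold no distal peak by the distance rule. KLF5 and TGFBR2, with 12.6 and 51.1 kb of distal body, had 0. H2BK120ub1 covered 95.4% of NR2F1, 82.8% of TGFBR2, 76.2% of MYC, 72.9% of KLF5 and 67.8% of SOX9, while HAS2, EFNA5 and ACTBL2 carried none.

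Intergenic distal H2A.Z peaks were denser around genes with promoter H2A.Z, decoration or both than around genes with neither. Each intergenic distal base was assigned to the nearest protein-coding TSS. Intergenic density was 33.3 peaks per Mb around the 6558 genes with H2A.Z within 1 kb of the TSS and a decorated body, 31.2 around the 3503 with promoter H2A.Z alone, 30.3 around the 2860 with decoration alone and 10.1 around the 7049 with neither. Inside gene bodies the order was different. Bodies with both marks held 4.09 distal peaks per Mb, decorated bodies without promoter H2A.Z 10.2, bodies with neither 14.4 and undecorated bodies with promoter H2A.Z 19.3. Genes with promoter H2A.Z and no decoration had high densities inside and outside their bodies, and 73.2% of them had at least 1 within 100 kb of the TSS. That share was 64.3% with both marks, 55.4% with decoration alone and 46.8% with neither, against 58.4% of all protein-coding genes. Distance to the TSS was not matched between the classes. Genes with neither mark were assigned 422 Mb of intergenic sequence, and the other classes 66.9 to 227 Mb each.

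Within 100 kb of the TSS, 11661 of 19970 protein-coding genes (58.4%) had at least 1 distal H2A.Z peak and 3286 (16.5%) had at least 5. The median gene had 1, the upper quartile was 3 and the highest count 30. The lists that follow were read against these shares, with no test. Because peaks close to any TSS are left out, genes in gene-dense regions have less distal sequence around them, so the pooled density per Mb of distal sequence within 100 kb is given as well, which was 22.8 over all protein-coding genes.

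WNT target genes had the highest median of the 8 lists. All 16 had at least 1 within 100 kb, 12 had at least 5, and the median was 7, with 62.0 peaks per Mb. MYC, the proliferation factor, had the most, with 28, followed by CD44, a hyaluronan receptor, with 12. RNF43, a negative regulator of WNT receptors, was at the median with 7, and its paralogue ZNRF3 and the WNT deacylase gene NOTUM had 1 each. H2A.Z was at the promoter of 14 of the 16 genes, against 50.4% of all protein-coding genes, and 9 were decorated, against 47.2%. The stem cell gene LGR5 and the feedback regulator AXIN2, with 9 and 8 distal peaks, carried promoter H2A.Z and no H2BK120ub1.

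Intestinal transcription factors were divided. Of 14 genes, 10 had a distal peak within 100 kb and 8 had at least 5, with a median of 5 and 48.3 per Mb. EHF, an epithelial ETS factor, had 15, KLF5 had 12 and the caudal factor CDX1 had 10. CDX2 and ELF3 were at the median with 5. FOXA1, GATA4 and HNF4G were among the genes with 0.

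Genes of epithelial adhesion and keratins had a median of 3.5, with 14 of 16 genes reached and 52.6 per Mb. KRT8 and KRT18, neighbouring genes of simple epithelial keratins, had the most with 12 each, KRT80 had 4 and EPCAM, the epithelial adhesion molecule, 3. ITGB4 and KRT20 had 0.

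The MAPK and AP-1 genes also had a median of 3.5, with 13 of 16 reached and 62.5 per Mb, and they stood at both ends. MET had 21 and DUSP4, a phosphatase of MAP kinases, 20, whereas JUNB, ERRFI1 and SPRY2 had 0. Near the median stood EPHA2 with 4 and DUSP6 with 3. Of these genes 14 of 16 were decorated (47.2% of all protein-coding genes) and 3 of 16 carried promoter H2A.Z (50.4%), and no difference from other lists was tested. JUNB and JUND, which are under 3000 bp, were counted as not decorated, although H2BK120ub1 covered 96.6% and 88.6% of them.

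**Figure D4:**
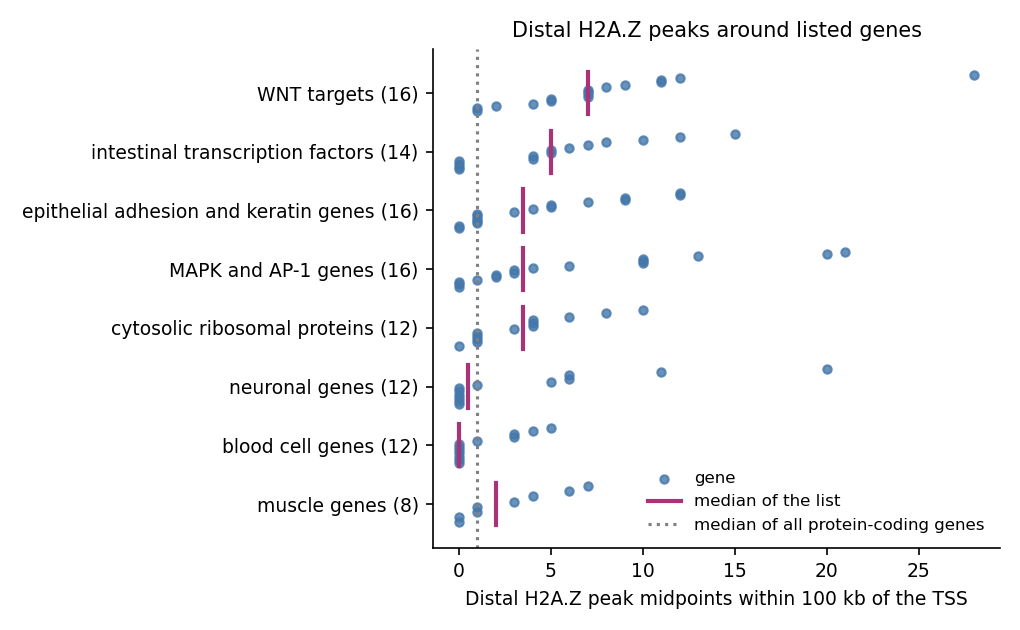
Number of distal H2A.Z midpoints within 100 kb of the TSS (x axis) for each gene (points) of 8 lists (y axis, number of genes in brackets), with the median of each list (bar) and of all protein-coding genes (dotted line, 1). WNT targets reach from 1 to 28 with a median of 7, and the blood cell genes have a median of 0.

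The remaining lists were chosen for contrast. Cytosolic ribosomal protein genes, which are expressed in every cell, had a median of 3.5, with 11 of 12 reached and 39.5 per Mb. RPL35 had 10, RPL3 had 4, RPL30 had 3 and RPS6 had 0. As in the MAPK and AP-1 list, most of these 12 genes were decorated (11) and few carried promoter H2A.Z (4). Neuronal genes had a median of 0.5 with 6 of 12 reached and 32.1 per Mb. RBFOX3 had 20, NEUROD1 had 11, NEUROD2 had 1, and CNTNAP2 and RBFOX1 were among the 6 with 0. Blood cell genes had a median of 0 with 5 of 12 reached and 20.4 per Mb, the highest being CSF1R with 5. Muscle genes had a median of 2 with 6 of 8 reached and a density between those of the blood cell and neuronal lists, from TTN with 7, over ACTC1 with 3 and CKM with 1, to DES and MYOG with 0.

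Letters of AP-1 and CTCF sites were more frequent in distal peaks than in the distal genome. AP-1 letters were in 9.20% of central windows of 300 bases, against 4.35% of 6710996 distal tiles of the same length outside H2A.Z peaks, a ratio of 2.11 (95% interval 2.05 to 2.19). CTCF letters (CCACNAGG or CCTNGTGG), the core bound by the insulator protein CTCF, were in 5.76% and 2.89%, a ratio of 1.99. SP/KLF letters (GGGCGG or CCGCCC) had a ratio of 2.34 and ETS letters (CCGGAA or TTCCGG) one of 2.16, whereas TCF/LEF letters were at 0.929, in 4.96% of windows against 5.34% of tiles. HNF4 letters (CAAAGTCC or GGACTTTG) reached 1.39, RUNX letters (AACCACA or TGTGGTT) 1.09, TEAD letters (ACATTCC or GGAATGT) 0.999, NF-Y letters (CCAAT or ATTGG) 0.960, FOX letters (GTAAACA or TGTTTAC) 0.914 and GATA letters (AGATAA or TTATCT) 0.763. Both strands were searched, and none of these words contains another.

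Base composition moves with several of these values, since the peaks are richer in GC than the tiles. Within classes of equal GC content, the ratio for AP-1 stayed between 1.599 and 2.545 and that for CTCF between 1.21 and 1.66. The ratio for SP/KLF was between 0.853 and 1.04 in the 4 classes from 35% to 55% GC, 1.52 above 55% and 1.88 below 35%. For TCF/LEF it was between 1.07 and 1.39, so the ratio below 1 over all windows was not found within any class of GC content. For GATA it was 0.904 below 35% GC and between 1.05 and 1.17 in the other 5 classes, and for FOX between 1.09 and 1.36 in the 5 classes up to 55% and 0.526 above.

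The AP-1, SP/KLF and CTCF letters were concentrated at the centres of the peaks, in counts that were not matched for GC content. In bins of 100 bases, there were 0.177 AP-1 matches per kb at 2000 to 2100 bases after the centre and 0.350 per kb at 100 to 200 bases before it. SP/KLF matches were at 0.171 per kb in the same outer bin and at 0.341 in the bin just after the centre, and CTCF matches at 0.109 and 0.210. TCF/LEF matches were 0.177 per kb in that outer bin and 0.172 per kb just after the centre.

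**Figure D5:**
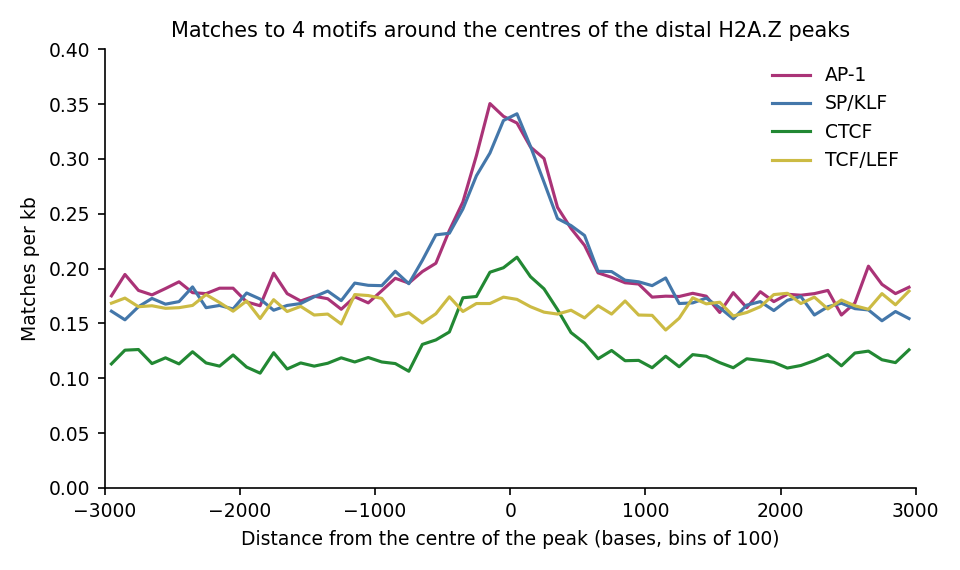
Matches per kb (y axis) in bins of 100 bases by distance from the peak centre (x axis, bases) for 4 motifs over the 34326 distal H2A.Z peaks. AP-1, SP/KLF and CTCF matches have a maximum at the centre, with 0.350, 0.341 and 0.210 per kb, and TCF/LEF matches lie between 0.144 and 0.179 per kb across the range.

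AP-1 letters were in 8.94% of intergenic windows, 9.44% of windows in undecorated and 9.66% in decorated genes, and in 4.92% of windows of peaks within 1 kb of a TSS. SP/KLF letters were in 5.74%, 6.43% and 15.2% of windows in the same order, against 47.0% within 1 kb of a TSS, and ETS letters in 3.09%, 3.51% and 5.24%, against 15.8%. The peaks in decorated genes also contained an annotated transcript start more often, in 481 of 3147 (15.3%), against 747 of 12981 (5.75%) in undecorated genes. The peaks in decorated genes were thus partly at annotated internal starts, which the gene 5′ ends used for the distance rule do not include.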

How the data were processed

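Per the paper's methods, the authors trimmed reads, aligned them with Bowtie2 (2.4.2) to hg38, removed duplicates with Picard (2.26.10), called broad peaks with MACS2 (2.2.6) against pooled inputs, joined peaks within 500 bp, and retained the joined regions that all replicates shared and that lay outside the blacklist. The deposited lists hold positions in bp, without scores or counts. Because a peak had to occur in every library and neighbours were merged, numbers, widths and gaps depend on these steps, and the depth behind a peak is not known.

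Members, hosts, distances and motif letters were computed in Python (3.11.15) with numpy (2.4.6), pandas (2.3.3) and scipy (1.17.1), using GENCODE 44 and the hg38 sequence, the build of the files. Base shares leave out assembly gaps and sequence within 10 kb of a TSS, but not blacklisted, repeated or poorly mappable sequence. The share of repeats was not computed, since the genome used carried no repeat mask. Intervals are Wilson or order-statistic intervals of 95%. The routines were tested on simulated intervals.

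Genes, clusters and peaks were named by rule: the 10 hosts with most peaks, the 10 densest with at least 10, the 10 largest clusters, the 5 widest peaks, the 10 genes most often nearest, and the highest, middle and lowest members of 8 gene lists. Members and lists were chosen with earlier results of these data known. The mouse lists of the series were not used here. Some items named by these rules are not reported here.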

Additional observations from a re-analysis of the deposited data

How the results depend on the processing

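Positions of 1 merged list were described without a test, so the values below show only how they move with the definitions. With transcript 5′ ends in place of gene 5′ ends as TSSs, 28973 peaks were distal, and the median width was 967 bp, the share in gene bodies 38.3%, the share in clusters 42.9%, the ratio of decorated to undecorated density 0.430 and the share of protein-coding genes with a peak within 100 kb 49.1%. With protein-coding TSSs alone, 48.2% of peaks were in gene bodies, and with protein-coding hosts alone 29.4% were and the density ratio was 0.345. A limit of 5 kb in place of 10 kb gave a width of 997 bp, 44.7% in clusters and 69.8% of genes, and a limit of 20 kb gave 961 bp, 41.9% and 35.7%. Peaks of at least 1 kb numbered 16811, with a width of 1530 bp, 46.0% in gene bodies, 27.8% in clusters, a density ratio of 0.416 and 44.9% of genes. Clusters held 26.9% of peaks with gaps of at most 5 kb and 60.7% with gaps of at most 20 kb. The share of genes was 39.4% within 50 kb and 76.9% within 200 kb. A minimum of 500 bp shared with an interval gave a density ratio of 0.364. Extending each H2BK120ub1 interval by 1 kb raised the ratio of midpoints inside to base coverage to 0.117. Central windows of 500 bases gave a ratio of 2.03 for AP-1. The share of peaks before the first interval over that of bases was 4.08 with transcript 5′ ends, 4.61 with intervals of at least 1 kb and 27.4 in genes covered to at least 25%, alternatives chosen after seeing the data. In all alternatives run, the density ratio (0.345 to 0.430) and the ratio inside intervals (0.00556 to 0.117) were below 1. No paired analysis was possible because the lists are merged over libraries and the results come from no test. For the same reason no library could be left out in turn. Depth cannot be judged from the lists, and a missing peak does not show that H2A.Z was absent.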
